A study of Mus musculus with 35 samples.

Results

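The response of KC-shSmad4 tumor cells to the *Smad4* switch was compared between primary tumors in the pancreas and metastases in the lungs, 14 days after the switch. The measure was, for each gene, the change between libraries labelled Smad4 on and Smad4 off in the lungs minus the same change in the pancreas, so that a positive difference marks a gene whose change was more positive in the lungs. The libraries were chosen by their labels of organ and day alone, which gave 13 of the 35 RNA-seq libraries in the series, 5 from the pancreas and 8 from the lungs. The pancreas held 2 libraries labelled Smad4 off and 3 labelled Smad4 on, and the lungs held 4 of each. KC-shSmad4 cells are lines made from mouse pancreatic ductal adenocarcinoma (PDAC) in which Ptf1a-Cre, active in pancreatic epithelium, had switched on the reverse tetracycline transactivator rtTA3 and the red reporter mKate2, together with a doxycycline (Dox)-inducible, GFP-linked hairpin against *Smad4*. Cells of all groups share these alleles. They were placed in the tail of the pancreas, or in the tail vein to reach the lungs, of female Foxn1nu athymic nude mice 6 to 8 weeks old, which lack T cells but keep other immune cells. The vein received 2.5 times as many cells as the pancreas. All hosts ate Dox chow from the start, which drives the hairpin, and this diet was kept in the groups labelled Smad4 off. In the groups labelled Smad4 on it was, per the study's methods, withdrawn 4 weeks after injection in the pancreas and 6 weeks after injection in the lungs, and mKate2+ cells were sorted from the tumors. The organ is therefore joined with the route of injection, the number of cells and the time of withdrawal, and these cannot be told apart. The labels do not say which cell line a library came from.

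SMAD4 is the common partner that carries receptor-activated SMAD2 and SMAD3, downstream of transforming growth factor-β (TGFβ), or SMAD1 and SMAD5, downstream of bone morphogenetic proteins (BMPs), to their target genes. It is often lost in PDAC. In epithelial cells TGFβ signalling is known to slow the cell cycle, to induce extracellular matrix genes and to alter epithelial identity, and PDAC cells of the classical type are known for genes of the gastric lining, such as trefoil factors and secreted mucins.

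The targeted gene went against the labels. *Smad4* (ENSMUSG00000024515) stood at 101 and 112 counts per 1000000 counted reads (CPM, scaled by trimmed mean of M values, TMM) in the pancreas libraries labelled Smad4 off and at 19.1, 22.4 and 21.7 CPM in those labelled Smad4 on. The lung libraries gave 121, 105, 125 and 101 CPM with the label off and 15.8, 17.7, 18.6 and 20.9 CPM with the label on. *Smad4* was thus lower in each of the 3 pancreas and 4 lung libraries labelled Smad4 on, with log2 changes of -2.34 ± 0.14 for the pancreas and -2.63 ± 0.11 for the lungs (Benjamini-Hochberg adjusted p from the quasi-likelihood test of edgeR, 1.27e-05 and 2.94e-07). Changes and differences are log2 values ± standard error (SE) throughout, from the 5 pancreas and 8 lung libraries. Labels are used as deposited, and every direction below is labelled on against labelled off. Whether the names on and off were exchanged, which would turn every direction, was not tested. The difference between organs in *Smad4* was -0.29 ± 0.18.

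Library totals ran from 12092600 to 32195800 counts (to 6 digits), which sets the level of 3 counts at 0.0932 to 0.248 CPM (counting error only). In the pancreas depth moved with the label, at 28.6 and 32.2 M counts with the label off and 12.2 to 14.3 M with the label on, and its part in the results was not tested. The lung libraries fell into sets of 4, each with 2 libraries of either label: replicates 1 and 2 held 0 counts of the mitochondrial gene *mt-Co3*, as did all 5 pancreas libraries, and replicates 3 and 4 held 291 to 570. Across genes, the median correlation of log2 CPM between lung libraries was 0.979 and 0.977 within these sets and 0.935 to 0.949 between them. All 7 markers of tumor epithelium had counts in each library. Markers of other cells were also present: 10 fibroblast markers summed to 9594 to 19193 CPM of the library total in the pancreas and 158 to 1637 CPM in the lungs. Of 12 acinar markers, all were counted in each pancreas library (summed 1078 to 4027 CPM) and 2 to 5 in each lung library (3.03 to 13.6 CPM). The 12 lung epithelium markers summed to 245 to 508 CPM in lung libraries labelled off and 358 to 892 CPM in those labelled on, and to 35.5 and 35.6 CPM and then 53.2 to 93.8 CPM in the pancreas, where the labels did not overlap. In the pancreas 5 of the 12 were at 0 (*Sftpc*, *Sftpb*, *Sftpa1*, *Lamp3* and *Scgb3a2*), and *Sftpd* held the largest share of the sum, at 17.9 to 19.6 CPM and then 30.9 to 66.5 CPM. The part of these other cells in the results was not tested. The 12 macrophage and myeloid markers summed to 228 to 384 CPM with the label off and 404 to 802 CPM with the label on in the lungs, and to 189 to 305 CPM and 335 to 378 CPM in the pancreas (sums with no test). In the lungs 11 of the 12 had a positive change, all but *Mrc1*. In the pancreas 7 had, the gap in the sum came mainly from *Cd14* (91 to 111 CPM, then 173 to 200.2 CPM), and *Csf1r*, *Cd68*, *Lyz2*, *Adgre1* and *Mrc1* had changes of -0.20 to -0.0041. In such sorted bulk samples, fewer cells of a type and less RNA per cell cannot be told apart.

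In the comparison of organs, edgeR called no gene: 0 of 16472 genes tested (0%) had a difference over 2-fold at an adjusted p under 0.05, and the lowest adjusted p was 0.104. At an unadjusted p under 0.05 there were 450 genes with a more positive change in the lungs (2.73%) and 729 with a less positive one (4.43%), or 7.16% in all. Among the 450, the changes had opposite signs in the organs for 377 genes, which were higher with the label on in the lungs and lower in the pancreas. Among the 729, 445 were lower in the lungs and higher in the pancreas, and 259 were higher in both organs but less so in the lungs. These signs are partly set by the choice of genes on their difference. The count of called genes depended on the fit. DESeq2 called 38 genes higher and 75 lower, limma voom 11 and 21, and edgeR with a term for the *mt-Co3* sets 17 and 43 (0.103% and 0.261%). A replicate block of mouse numbers, nested in organ, gave 4 genes higher and 6 lower in edgeR. The chart of calls by fit gives these counts side by side.

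**Figure D1:**
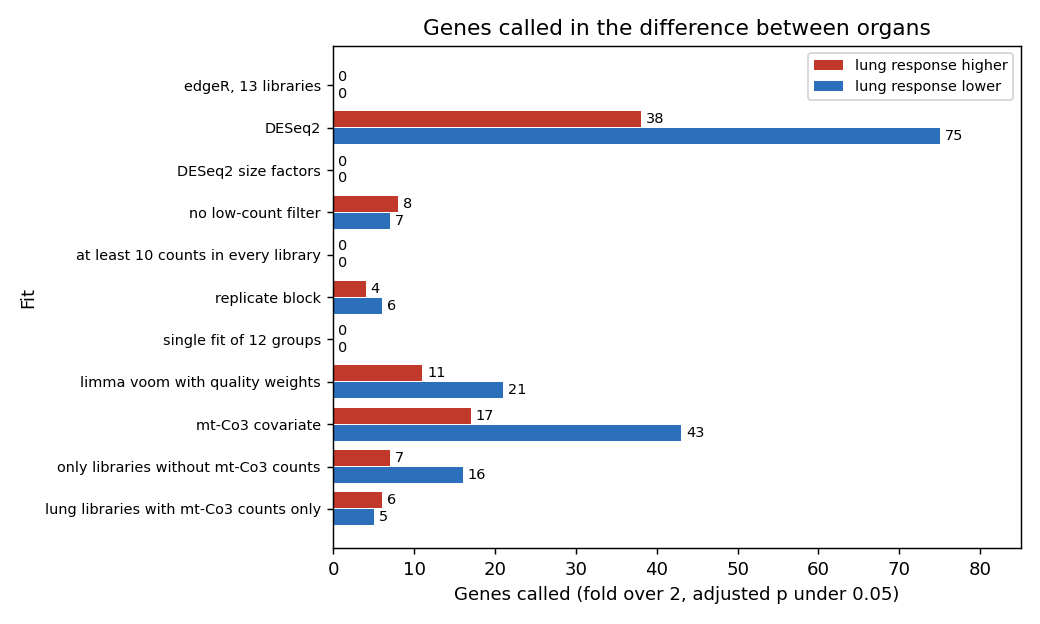
Number of genes called (horizontal axis; fold over 2 and adjusted p under 0.05) in the day 14 difference between lung and pancreas responses, by fit (vertical axis), with red bars for a higher and blue bars for a lower lung response. The edgeR fit of the 13 libraries calls 0 genes in each direction, and DESeq2 calls the most, 38 and 75.

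The number of called genes differed between the single responses, which is not a measure of their size. With the label on, 151 genes were called higher (0.917%) and 28 lower (0.17%) in the pancreas, and 23 higher (0.14%) and 16 lower (0.0971%) in the lungs. The pancreas counts rest on 2 libraries labelled off: without replicate 1 of them 1 gene was called higher and 2 lower, and without replicate 2 the counts were 0 and 1. Without 1 of the 3 libraries labelled on, 51 to 76 genes were called higher and 5 to 11 lower, and without single lung libraries 98 to 212 and 16 to 60, the highest without replicate 4 labelled on and the lowest without replicate 2 labelled on. The lung counts moved by over 1.5 times in at least 1 direction without any single library, except pancreas replicate 1 labelled on (16 and 12). They were highest without lung replicate 2 labelled off (136 higher, 58 lower) and replicate 4 labelled on (61 and 60), and lowest without replicate 3 labelled off (4 and 5) and, for lower genes, replicate 2 labelled on (10 and 4). The replicate block gave 94 genes higher and 41 lower in the lungs and 228 and 82 in the pancreas, and the *mt-Co3* term 160 and 78 in the lungs. At an unadjusted p under 0.05, 8.1% of all genes were higher and 6.46% lower in the pancreas. The lungs gave 6.64% and 6.62%. Fitted alone, the lungs gave 3 and 1 and the pancreas 482 and 179. For the 2 sets of lung libraries, analysed apart, the lung changes of 15164 genes correlated at r = 0.37, a description across genes that share base composition and depth within a set.

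The 5 genes with the lowest p for a more positive lung change were *Itga7*, *Nudt4*, *Gli2*, *Sorbs3* and *Inhbb*. They are given as values, since none was called by edgeR in the 13 libraries. *Itga7* (ENSMUSG00000025348, chr10:128933818-128958282, GRCm38 as for all positions) encodes the α7 integrin chain, a laminin receptor. In the pancreas, the libraries labelled Smad4 off held 24.2 and 21.8 CPM and those labelled Smad4 on 12.6, 9.01 and 12.6 CPM. It stood at 8.94, 9.4, 7.63 and 4.51 CPM in the lung libraries labelled Smad4 off and 21.3, 23.2, 17.6 and 17 CPM in those labelled Smad4 on. The groups did not overlap in either organ, and the order was opposite, with the high values in the pancreas libraries labelled off and in the lung libraries labelled on. Non-overlap is common in these small groups, at 44.4% of all genes in the pancreas, 5.55% in the lungs and 3.41% in both. *Itga7* rose in the lungs by 1.38 ± 0.22 (adjusted p = 0.0201, edgeR), its pancreas change was -1.01 ± 0.27 (adjusted p = 0.0816), a difference of 2.40 ± 0.34 with an adjusted p of 0.104 in edgeR. The lung change was alike in the 2 sets of lung libraries, 1.30 without and 1.52 with *mt-Co3* counts. With the replicate block the difference was 2.52 (edgeR, adjusted p = 0.0265) and the pancreas change -1.11 (adjusted p = 0.0345), both called. *Itga7* was called in 7 of 11 other fits, the replicate block and the *mt-Co3* term among them, and its difference ranged from 2.29 to 2.53 over the 11.

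*Nudt4*, a phosphohydrolase of diphosphoinositol polyphosphates, followed a similar order at higher levels. In the pancreas, the libraries labelled Smad4 off held 384 and 339 CPM and those labelled Smad4 on 166, 222 and 239 CPM, and in the lungs 84.1, 88.7, 97.4 and 90 CPM with the label off and 105, 123, 125 and 138 CPM with the label on. Each lung library labelled on was above every lung library labelled off, while in the pancreas those labelled on were below. Its difference was 1.24 ± 0.20. *Sorbs3* encodes vinexin, an adaptor at focal adhesions that binds vinculin. It stood at 81.2 and 81.4 CPM in the pancreas with the label off and 33.5, 42.3 and 49.3 CPM with the label on, against 15.6, 12.4, 12.6 and 15.4 and then 16.1, 16.7, 16.1 and 16.8 CPM in the lungs. Here the larger part of the difference (1.20 ± 0.20) lay in the pancreas, where the change was -0.96 ± 0.15, and the lung change was 0.23 ± 0.12, with lung groups that did not overlap. *Inhbb*, the βB subunit of activin B and inhibin B and so a ligand of the TGFβ family, gave 106 and 96.8 CPM and then 35.1, 45.3 and 56.6 CPM in the pancreas. In the lungs the values were 13.9, 22, 15.4 and 24.7 CPM with the label off and 33.7, 42.4, 28.7 and 62.3 CPM with the label on. The 2 lung groups did not overlap, and neither did those of the pancreas. Its changes of 1.13 ± 0.26 in the lungs and -1.15 ± 0.32 in the pancreas differed by 2.28 ± 0.41, and the difference was called with the replicate block (2.45, adjusted p = 0.0127 in edgeR).

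*Gli2* (ENSMUSG00000048402, chr1:118834132-119053619), a transcription factor that carries hedgehog signals and is also known as a TGFβ target, was the gene of this group that was called in both organs. In the pancreas, the libraries labelled Smad4 off held 4.61 and 5.53 CPM and those labelled Smad4 on 34.9, 23 and 23.4 CPM. The lung libraries gave 1.32, 0.404, 0.392 and 0.801 CPM with the label off and 29.5, 46.9, 24.8 and 27.3 CPM with the label on. With the label on the organs were at similar levels, and with the label off the lung libraries were lower than the pancreas libraries. *Gli2* rose by 5.52 ± 0.37 in the lungs and by 2.42 ± 0.40 in the pancreas (edgeR, adjusted p = 2.57e-05 and 0.0165), a difference of 3.10 ± 0.50 (adjusted p = 0.104).

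The 5 genes with the lowest p for a less positive lung change were *Matn4*, *Abcb1b*, *Vill*, *Vstm2b* and *Podxl*. *Matn4* (ENSMUSG00000016995, chr2:164389393-164405160) encodes matrilin-4, an adaptor protein of the extracellular matrix. In the pancreas, the libraries labelled Smad4 off held 0.405 and 0.687 CPM and those labelled Smad4 on 5.64, 13.2 and 10.9 CPM. The lungs held 0.856, 0.98, 1.09 and 1.4 CPM and 1.52, 1.91, 1.6 and 2 CPM. The pancreas groups were far apart and the lung groups adjoined without overlap. *Matn4* rose in the pancreas by 4.16 ± 0.45 (adjusted p = 0.00275, edgeR), its lung change was 0.69 ± 0.30 (adjusted p = 0.354), and the difference was -3.47 ± 0.52. With the replicate block it was -3.34 and called (adjusted p = 0.0392 in edgeR). *Vstm2b* (ENSMUSG00000039257, chr7:40898328-40930594), a membrane protein with an immunoglobulin domain, was called in both organs. It stood at 0.626 and 0.523 CPM and then 15.6, 20.2 and 26.6 CPM in the pancreas, and at 5.06, 3.23, 5.45 and 5.21 CPM in the lung libraries labelled Smad4 off and 19.6, 35.4, 18 and 15.7 CPM in those labelled Smad4 on. As with *Gli2*, the levels with the label on were similar in the 2 organs. For *Vstm2b* it was the pancreas that was lower with the label off, and the change was 5.16 ± 0.45 there and 2.22 ± 0.28 in the lungs.

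In *Abcb1b*, *Vill* and *Podxl* the changes had opposite signs in the organs. *Abcb1b*, one of the mouse genes for the drug efflux pump P-glycoprotein, stood at 19.5 and 19.9 CPM in the pancreas with the label off and 36.6, 30 and 31.8 CPM with the label on. The lung values were 92.9, 64.3, 73 and 63.1 CPM and then 41.9, 43, 50 and 53.2 CPM. Neither organ's groups overlapped, and the difference was -1.37 ± 0.22. *Podxl*, the sialomucin podocalyxin of apical membranes, gave 82.5 and 89.6 CPM and then 196, 164 and 177 CPM in the pancreas and 354, 277, 341 and 336 CPM and then 182, 276, 293 and 193 CPM in the lungs. It rose in the pancreas (1.06 ± 0.21, adjusted p = 0.0321 in edgeR), the lung groups overlapped (-0.47 ± 0.16), and the difference was -1.52 ± 0.26. The pancreas call was lost with the replicate block at the same change (1.06, adjusted p = 0.0516 in edgeR). *Vill*, a villin-like actin-binding protein, differed by -0.88 ± 0.15, from 64.2 and 71 CPM to 97.7, 114 and 96 CPM in the pancreas and from 134, 132, 138 and 155 CPM to 115, 123, 113 and 108 CPM in the lungs. Of the 10 genes named for their p, only *Gli2* and *Vstm2b* were called in both organs.

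**Figure D2:**
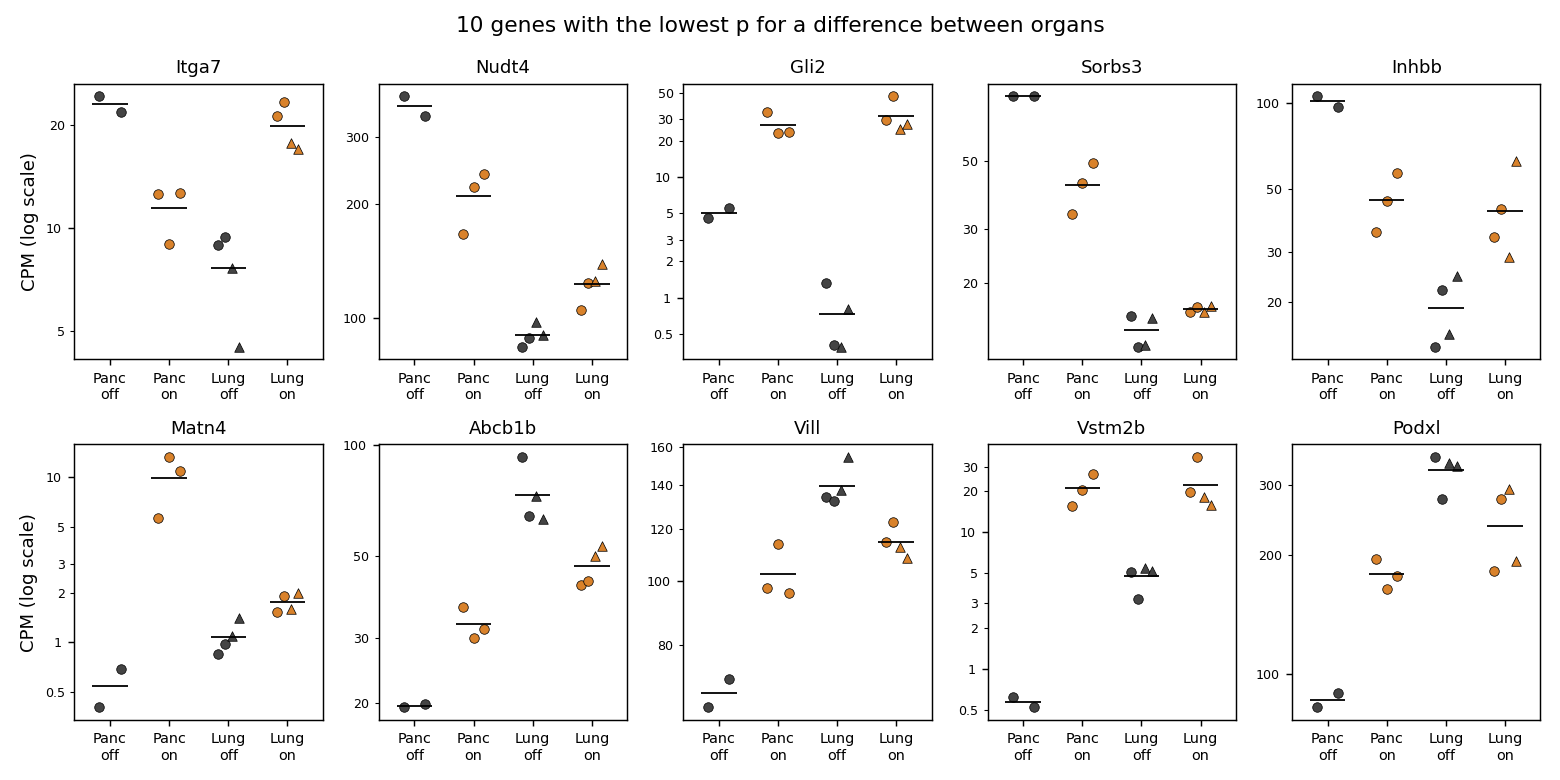
CPM (log axis) of the 10 named genes in each of the 13 libraries, by organ and label, with horizontal bars for group means, grey for libraries labelled Smad4 off, orange for Smad4 on, circles for libraries with 0 and triangles for those with 291 to 570 *mt-Co3* counts. *Itga7* is high in the pancreas libraries labelled off and the lung libraries labelled on, and the *Gli2* levels of the 2 organs meet with the label on.

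Called in both organs were 14 genes, each with the same direction in both: 12 higher and 2 lower with the label on. With the replicate block 42 genes were called in both organs in 1 direction. No gene was called in opposite directions by the fit without the block. Besides *Gli2* and *Vstm2b*, the higher genes included *Pax9*, a transcription factor of the foregut. In the pancreas, the libraries labelled Smad4 off held 20.6 and 19.9 CPM and those labelled Smad4 on 72.2, 61.5 and 62.7 CPM, and the lungs 23.6, 29.9, 25.5 and 35 CPM and then 78.5, 103, 78.7 and 77.2 CPM. The 2 changes, 1.69 ± 0.19 and 1.57 ± 0.14, differed by -0.13 ± 0.22. *Slc29a3*, the lysosomal nucleoside transporter ENT3, gave 1.79 ± 0.20 in the pancreas and 1.86 ± 0.15 in the lungs, a difference of 0.07 ± 0.24. *Wnt4*, a Wnt ligand, stood at 7.37 and 9.58 CPM and then 42.6, 52.4 and 51.5 CPM in the pancreas and at 28.9, 29.9, 28.4 and 49 CPM in the lung libraries labelled Smad4 off and 77, 90.5, 65.3 and 64.8 CPM in those labelled Smad4 on. Its pancreas change of 2.53 ± 0.27 and its lung change of 1.13 ± 0.19 differed by -1.40 ± 0.31 (adjusted p = 0.176 in edgeR). The other higher genes were *Muc13*, *Gabra2*, *Oit1*, *5330417C22Rik*, *Shisa2*, *Oprd1* and *Gm37711*. The lower genes were *Smad4* itself and *Ltbp1*, which encodes a latent TGFβ binding protein that stores TGFβ in the matrix. *Ltbp1* fell by nearly the same amount, -1.03 ± 0.17 in the pancreas and -1.01 ± 0.14 in the lungs, from 596 and 627 CPM to 252, 332 and 315 CPM and from 270.1, 244, 257 and 270.1 CPM to 114, 121, 114 and 168 CPM. The interval of its difference, 0.02 ± 0.22, is wide beside its value.

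**Figure D3:**
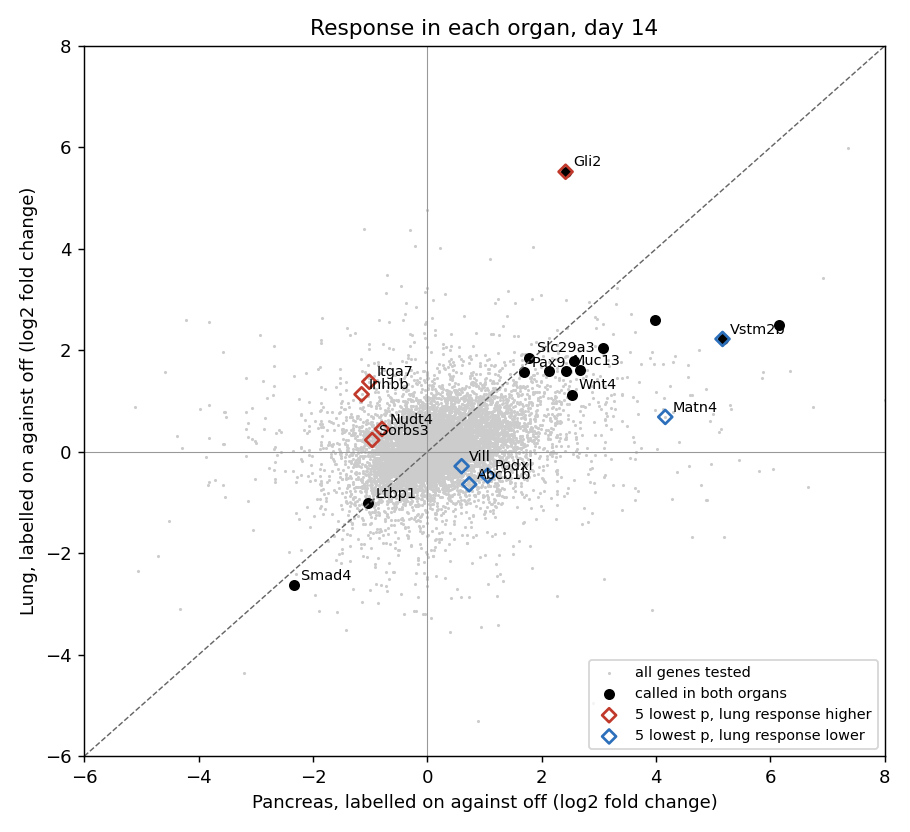
Log2 fold change, labelled on against labelled off, in the pancreas (horizontal) and the lungs (vertical) for the 16472 genes tested, of which 5 lie outside the axes; black points are the 14 genes called in both organs, diamonds the 5 genes per direction with the lowest p for a difference, and the dashed line marks equal changes. *Gli2* lies above the line, *Vstm2b* and *Matn4* lie below it, and the 14 genes called in both organs all lie in the quadrants of equal sign.

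For 3 of the genes called in both organs, the 250 bases before the RefSeq start (GRCm38.p6) are shown, since all 3 rose in both organs and differ in where the larger change lay: the lungs for *Gli2* and the pancreas for *Vstm2b* and *Wnt4*. Capitals mark CAGAC or its reverse complement GTCTG, the short SMAD-binding element.
Gli2 promoter (chr1:119053620-119053869, minus strand): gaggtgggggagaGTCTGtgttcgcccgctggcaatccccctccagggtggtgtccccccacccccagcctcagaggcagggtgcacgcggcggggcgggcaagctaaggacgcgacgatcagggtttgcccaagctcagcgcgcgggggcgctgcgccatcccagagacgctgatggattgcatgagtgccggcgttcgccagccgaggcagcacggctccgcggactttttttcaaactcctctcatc
Vstm2b promoter (chr7:40899028-40899277, plus strand): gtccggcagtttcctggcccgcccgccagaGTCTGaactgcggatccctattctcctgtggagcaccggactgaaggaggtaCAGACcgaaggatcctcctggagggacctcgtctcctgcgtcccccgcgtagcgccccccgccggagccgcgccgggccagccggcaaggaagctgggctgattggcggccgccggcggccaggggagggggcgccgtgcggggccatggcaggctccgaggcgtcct
Wnt4 promoter (chr4:137277385-137277634, plus strand): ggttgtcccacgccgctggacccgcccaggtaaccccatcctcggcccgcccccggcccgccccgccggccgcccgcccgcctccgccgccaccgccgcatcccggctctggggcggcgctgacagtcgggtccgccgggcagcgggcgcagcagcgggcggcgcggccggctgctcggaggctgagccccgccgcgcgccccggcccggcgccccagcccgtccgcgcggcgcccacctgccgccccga
The *Gli2* window held 1 match, the *Vstm2b* window 2 and the *Wnt4* window 0. The gene as counted starts at 40898328 for *Vstm2b*, before its window, and at 137277489 for *Wnt4*, within its window. Both *Vstm2b* matches thus lie inside the gene as counted. Of 32851 RefSeq promoter windows of this length, 42.2% held at least 1 match on either strand, so the matches describe these letters and mark no site of binding.

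Genes called in 1 organ leaned the same way in the other. The organs share no library, but both responses come from 1 fit, in which the lung libraries also set the spread behind the pancreas calls. The 151 genes called higher in the pancreas had a median change of 1.63 there and 0.47 in the lungs on the log2 scale, and 142 of them (94.0%) had a positive lung change, against 49.7% of all genes tested. For 149 of them the pancreas change was the larger, which their choice on that change partly set. The 28 genes called lower in the pancreas had a median of -1.40 there and -0.38 in the lungs, with 18 (64.3%) negative, against 50.2% of all genes. The 23 genes called higher in the lungs had a median of 1.78 in the lungs and 2.13 in the pancreas, 22 of them positive, and the 16 called lower had medians of -1.40 and -0.92, with 14 negative. Of those called in the lungs, 13 of the 23 and 15 of the 16 had the larger change there. In the libraries labelled off, 141 of the 151 genes were higher in the lungs than in the pancreas, by a median of 1.83, and in those labelled on 128 were, by a median of 0.70. Over all genes these medians were 0.09 and 0.06. The low pancreas values with the label off are part of what chose the 151 genes, so this is a description.

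Gastric and mucin genes had the largest negative median of the 30 gene lists. The lists were written with earlier results of these data known, so their counts are a description. Of 25 genes listed, 24 were tested. Their median change was 2.33 in the pancreas and 0.90 in the lungs, where the medians over all genes were close to 0, and their median difference was -1.34, against -0.01 over all genes. The difference was negative for 19 of 24, and an unadjusted p under 0.05 was reached by 11 of these and by 0 of the others, where 4.43% and 2.73% of all genes did so. No member was called in the difference. In the pancreas 4 members were called higher, in the lungs 1. The replicate block called 1 lower in the difference, and with the *mt-Co3* term *Vsig1*, *Pgc* and *Tff2* were called lower in the difference. With the label off, 23 of 24 were higher in the lungs than in the pancreas by a median of 2.35, and with the label on 21 were, by a median of 1.01.

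*Tff2*, a trefoil factor secreted by gastric mucous neck cells, gave 55 and 55.5 CPM in the pancreas libraries labelled off and 356, 436 and 426 CPM in those labelled on. The lung libraries held 428, 522, 231 and 264 CPM and 1448, 1061, 386 and 374 CPM. *Tff2* rose in the pancreas (2.88 ± 0.60, adjusted p = 0.043 in edgeR), and in the lungs the 2 groups overlapped (1.18 ± 0.42). The higher lung levels of each label lay in replicates 1 and 2, the libraries without *mt-Co3* counts. Within each set of lung libraries, those labelled on were above those labelled off, with changes of 1.42 without and 0.63 with *mt-Co3* counts. *Vsig1*, an adhesion molecule of the gastric lining, stood at 21.7 and 20 CPM and then 89.7, 62.9 and 76.5 CPM in the pancreas, and at 94.8, 85.4, 69.1 and 98.3 CPM in the lung libraries labelled Smad4 off and 105, 67.8, 116 and 65.7 CPM in those labelled Smad4 on. The pancreas values with the label on thus lay mostly within the lung range, and those with the label off were below it. Its pancreas change was 1.87 ± 0.27 (adjusted p = 0.0108), its lung change 0.03 ± 0.19 (adjusted p = 0.981), and the difference -1.84 ± 0.33 (adjusted p = 0.104, edgeR). *Tff3* and the membrane mucin *Muc13* rose in the pancreas by 3.16 and 2.42, and *Muc13* also in the lungs by 1.6, from 142, 278, 108 and 213 CPM to 828, 519, 566 and 338 CPM. The replicate block added lung calls for *Tff2* (1.00, adjusted p = 0.0394 in edgeR) and *Tff3* (1.69, adjusted p = 0.00376) and ended both *Muc13* calls at changes about as large (1.62, adjusted p = 0.0987 in the lungs, and 2.48, adjusted p = 0.0736 in the pancreas).

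Several members were low in the pancreas. *Pgc*, the precursor of the gastric protease progastricsin, stood at 0.258 and 0.36 CPM in the pancreas with the label off and 4.03, 3.69 and 3.71 CPM with the label on, against 11.4, 7.9, 3.66 and 2.35 and then 15.8, 9.45, 4.12 and 1.54 CPM in the lungs. Its difference was -3.30 ± 1.14, and -3.51 and called with the replicate block (adjusted p = 0.0392 in edgeR). The secreted mucin *Muc5ac* had 1 count in each pancreas library labelled off and 0.538, 2.54 and 0.553 CPM in those labelled on, and 24.2, 7.67, 8.59 and 15.6 and then 8.48, 14.8, 3.63 and 1.89 CPM in the lungs. *Gkn2*, a gastrokine of surface mucous cells, was at 0 in both pancreas libraries labelled off and in 1 library labelled on, so no fold is given, and the median of the list was -1.34 also with *Gkn2* at its bound of 3 counts. *Agr2*, a disulfide isomerase needed for mucin secretion, was uneven: the pancreas libraries labelled on held 179, 18.9 and 23.9 CPM and those labelled off 3.91 and 1.18 CPM. *Ctse*, the protease cathepsin E, differed from these in having a pancreas change of 0.09 ± 0.58 and a lung change of -2.05 ± 0.47, neither called.

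**Figure D4:**
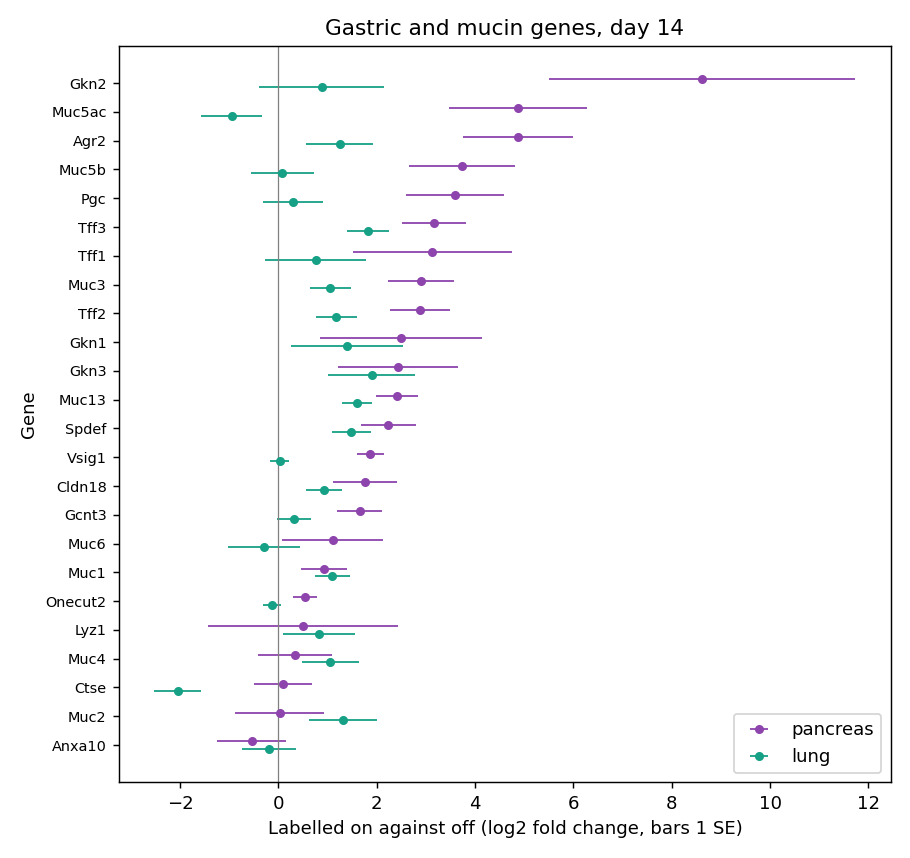
Log2 fold change, labelled on against labelled off, of the 24 gastric and mucin genes tested (vertical axis) in the pancreas (purple) and the lungs (green), with bars of 1 SE. The pancreas change is the more positive one for 19 of the 24 genes; the bars of *Gkn2*, which was at 0 in a whole group, and of *Muc5ac* and *Tff1* are wide.

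Epithelial genes had a negative median difference as well (-0.53, 29 of 30 tested, 0 higher and 6 lower at an unadjusted p under 0.05, beside 2.73% and 4.43% of all genes). Their median change was 0.54 in the pancreas and 0.16 in the lungs. In the pancreas the summed tumor epithelium markers were 4374 to 4626 CPM with the label off and 5944 to 8265 CPM with the label on. In the lungs those sums were 9532 to 13919 CPM and 8579 to 12103 CPM. The markers share genes with this list, *Cdh1* among them, so the sums are not separate evidence. Only *Sox9* among the markers had a negative pancreas change (-0.57). *Dsp*, the desmosomal plaque protein desmoplakin, gave 119 and 143 CPM and then 234, 237 and 244 CPM in the pancreas and 324, 315, 256 and 331 CPM and then 301, 313, 325 and 238 CPM in the lungs. The difference was -0.92 ± 0.20, and the pancreas groups did not overlap while the lung groups did. *Cdh1*, or E-cadherin, differed by -0.72 ± 0.24, from 339 and 370.1 CPM to 649, 655 and 649 CPM in the pancreas and from 694, 813, 677 and 901 CPM to 999.7, 966, 833 and 652 CPM in the lungs. *Krt19*, a ductal keratin, differed by -0.94 ± 0.40 and its groups overlapped in the lungs. Without the 4 lung libraries that held *mt-Co3* counts, the median difference of the epithelial genes was -0.05, and it was -0.26 without lung replicate 4 labelled on and -0.34 without lung replicate 4 labelled off.

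Mesenchymal genes (24 of 25 tested) had a median difference of 0.42, 20 of them positive, with 4 higher and 1 lower at that p. Both organs had a negative median change, -0.70 in the pancreas and -0.37 in the lungs. Smooth muscle and actin genes gave 4 higher and 0 lower of 20, beside 2.73% and 4.43% of all genes. *Acta2*, smooth muscle actin, stood at 1076 and 957 CPM and then 214, 452 and 388 CPM in the pancreas, and at 26.2, 41.3, 19.3 and 68.3 CPM and then 61.4, 33.3, 16 and 44.7 CPM in the lungs. *Cnn2*, an actin-binding calponin, was called lower in the pancreas (-1.13 ± 0.21, adjusted p = 0.0248 in edgeR) and differed by 0.76 ± 0.27, and *Tagln*, or transgelin, differed by 1.93 ± 0.55 at low levels in the lungs (0.544, 0.231, 0.392 and 0.351 CPM, then 0.882, 0.59, 0.43 and 0.41 CPM). These genes are also expressed by fibroblasts and pericytes, whose markers were many times higher in the pancreas libraries. In the pancreas the summed fibroblast markers overlapped between labels (12106 and 12505 CPM with the label off, 9594 to 19193 CPM with the label on), and their part in these differences was not tested.

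Matrix genes were mixed. Of 32 collagens tested, 4 higher and 3 lower passed the unadjusted p, beside 2.73% and 4.43% of all genes. *Col8a2*, a short-chain collagen, rose in the pancreas, from 2.32 and 3.27 CPM to 11.2, 22.3 and 17.6 CPM (2.60 ± 0.44, adjusted p = 0.0178 in edgeR), and stood at 0.389, 0.115, 0.218 and 0.501 CPM and then 0.343, 0.272, 0.369 and 0.256 CPM in the lungs. Among 19 integrins, 1 higher and 3 lower passed, to be read against the same shares. Beside *Itga7*, the collagen-binding chain *Itga1* rose in the pancreas, from 24.1 and 23.9 CPM to 99.6, 55.7 and 85.8 CPM (1.74 ± 0.31, adjusted p = 0.0208 in edgeR), where the lungs had 75.3, 128, 58.5 and 82.7 CPM and then 112, 116, 114 and 91.1 CPM. *Itga8*, a receptor for nephronectin, rose in the pancreas by 3.15 ± 0.58 from 0.368 and 0.458 CPM, and its lung change was 1.05 ± 0.39. For *Itga1*, as for *Vsig1*, the lung libraries of both labels held the levels that the pancreas libraries reached with the label on.

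Genes of the TGFβ pathway were counted against the shares of all genes at an unadjusted p under 0.05, which were 2.73% higher and 4.43% lower. Among the 7 SMAD factors tested, 0 higher and 1 lower passed the unadjusted p: *Smad3*, a receptor-activated SMAD, at -0.52 ± 0.23. Of 17 TGFβ ligands, receptors and latent binders, 2 higher and 0 lower passed. One of them was *Lrrc32*, or GARP, which tethers latent TGFβ at the cell surface, with 115 and 120.4 CPM and then 54.7, 75.7 and 95.4 CPM in the pancreas and 6.07, 3.06, 2.22 and 7.51 CPM and then 11.9, 20.3, 11.6 and 19.4 CPM in the lungs (2.40 ± 0.54). Each lung library labelled on was above all those labelled off. Of 26 feedback and direct target genes, 2 higher and 1 lower passed. *Bambi*, a decoy receptor that dampens TGFβ and BMP signals, differed by 2.05 ± 0.59, from 14 and 12.2 CPM to 4.37, 5.23 and 5.13 CPM in the pancreas and from 0.544, 0.922, 1.44 and 0.651 CPM to 1.08, 0.772, 1.23 and 2.56 CPM in the lungs. *Id1*, an inhibitor of basic helix-loop-helix factors and a BMP target, stood at 39.3 and 42.8 CPM and then 47.2, 56.3 and 54.1 CPM in the pancreas, and at 121, 111, 128 and 165 CPM in the lung libraries labelled Smad4 off and 77.1, 70.3, 85.7 and 87.3 CPM in those labelled Smad4 on. The groups of neither organ overlapped, and the changes had opposite signs: 0.36 ± 0.16 in the pancreas and -0.71 ± 0.13 in the lungs, a difference of -1.07 ± 0.21 with an adjusted p of 0.112 in edgeR and 0.0215 with the *mt-Co3* term. The study reports *Id1* as elevated in lung metastases on *Smad4* restoration, opposite to the direction by label here. The BMP and activin list gave 1 higher and 1 lower of 21.

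The 7 fibrogenic genes that the study names had negative differences throughout, with a median of -0.45, and 1 of them passed the unadjusted p. The study chose them on this series, so this is not independent evidence of their direction. *Ccbe1*, a matrix protein known for lymphatic growth, gave 14.4 and 13.8 CPM and then 8.53, 16.2 and 13 CPM in the pancreas and 17, 23.9, 19.8 and 19.7 CPM and then 7.6, 2.82, 0.861 and 6.96 CPM in the lungs, a difference of -1.97 ± 0.77. *Itga5*, the fibronectin receptor chain, fell in the lungs (-1.09 ± 0.18, adjusted p = 0.029 in edgeR), and its pancreas change was -0.93 ± 0.23 (adjusted p = 0.0672), so that the difference was -0.16 ± 0.30. Among the other members, the differences were -1.32 for the cytokine *Il11*, -0.65 for the hyaluronan synthase *Has2*, -0.33 for *Col6a1* and -0.12 for *Wisp1*, whose difference was 0.18 with the replicate block and 0.68 without lung replicate 4 labelled off. Each of the 7 had a negative change in both organs. *Cdkn1c*, the CDK inhibitor p57, differed by -1.16 ± 0.77, with 7, 4.61, 20.5 and 23.4 CPM and then 5.59, 4.95, 8.48 and 12.2 CPM in the lungs, where both groups overlapped.

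None of the 15 KLF and RUNX factors, transcription factors that the study follows, passed the unadjusted p in the edgeR difference. *Klf4* differed by 0.27 ± 0.30, *Klf5* by -0.30 ± 0.22, *Klf6* by 0.05 ± 0.21, *Runx1* by 0.21 ± 0.24, *Runx2* by -0.11 ± 0.17 and *Runx3* by -0.94 ± 0.47. The levels of *Klf5*, known for its role in gastrointestinal epithelium, were 93.2 and 115 CPM and then 156, 122 and 116 CPM in the pancreas and 184, 183, 214 and 190.0 CPM and then 173, 184, 241 and 188 CPM in the lungs.

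Cholesterol synthesis and uptake genes had small differences, nearly all negative: the difference was negative for 24 of 25, with a median of -0.35, and 9 passed the unadjusted p, all of them lower, where 4.43% of all genes did. Their median change was -0.47 in the lungs and -0.08 in the pancreas. *Lss* (lanosterol synthase) and *Sqle* (squalene epoxidase) differed by -0.67 ± 0.18 and -0.59 ± 0.22. On day 7 the same list had a median difference of 0.62, and 1 of 25 genes kept its sign.

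AP-1 and immediate early genes, listed together with heat shock genes such as *Hspa1b*, respond to stress and to tissue handling. This mixed list gave 7 higher and 0 lower of 25 at an unadjusted p under 0.05, beside 2.73% and 4.43% of all genes. *Dnajb1*, a heat shock co-chaperone, stood at 429.6 and 529.6 CPM and then 247, 285 and 256 CPM in the pancreas and 204, 250.2, 267 and 273 CPM and then 338, 233, 366 and 260.2 CPM in the lungs (1.14 ± 0.25). *Egr2* and *Nr4a1*, immediate early transcription factors, differed by 1.13 ± 0.31 and 1.19 ± 0.34, and the heat shock gene *Hspa1b* by 1.49 ± 0.60, a value that is uncertain because its near-identical copy *Hspa1a* can share reads. In each of these 4 genes the pancreas libraries labelled off held the higher pancreas values, for *Nr4a1* 482 and 483 CPM against 214, 338 and 361 CPM. On day 7 the median difference of the list was -0.38.

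By the same p and beside the same shares, cell cycle lists gave 2 higher and 0 lower of 52 G2 and mitosis genes and 0 higher and 0 lower of 46 S phase genes, with median differences of 0.15 and -0.06. Interferon-stimulated genes had positive median changes in both organs, 0.54 in the pancreas and 0.49 in the lungs, with 49 and 48 of 51 positive, none called, and 0 higher and 2 lower in the difference. For nuclear genes of oxidative phosphorylation, 44 of 54 differences were positive at a median of 0.13, with 2 higher and 0 lower. Hypoxia and glycolysis genes gave 3 higher and 1 lower of 38, class I antigen presentation 1 higher and 0 lower of 22 and transcription factors of the epithelial-mesenchymal transition 1 higher and 0 lower of 10.

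*Hmox1*, heme oxygenase 1, lies outside these lists and was chosen after its values were seen. It gave 88.5 and 105 CPM and then 55.2, 51.9 and 47.4 CPM in the pancreas and 34.7, 31.4, 32.4 and 31.9 CPM and then 41.3, 40.3, 55.6 and 81.7 CPM in the lungs (1.66 ± 0.31). The lung groups did not overlap and neither did those of the pancreas, in opposite order. *Hmox1* was called in 6 of 11 other fits.

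The libraries of day 7, 5 from the pancreas and 6 from the lungs, gave the same comparison in separate samples. Labelled off and on there were 3 and 2 pancreas libraries and 4 and 2 lung libraries, so the day 7 lung changes rest on 2 libraries labelled on. edgeR called 0 of 15944 genes (0%), with an unadjusted p under 0.05 for 664 genes higher in the lung response (4.16%) and 1008 lower (6.32%). DESeq2 called 48 higher and 129 lower there. Of the 1134 genes that passed the unadjusted p on day 14 and were tested on day 7, 794 (70.0%) kept their sign, against 55.9% of all genes. The share was 79.1% for genes with a less positive lung change (553 of 699) and 55.4% for those with a more positive one (241 of 435). *Matn4* differed by -5.67 on day 7 and *Vstm2b* by -3.49, as on day 14 with the lower change in the lungs, and *Id1* by -1.25. *Itga7* gave 1.07, *Gli2* 0.90 and *Inhbb* -0.44. The other genes named for their day 14 p gave 0.23 for *Nudt4*, 0.11 for *Sorbs3*, -0.15 for *Abcb1b*, -0.61 for *Vill* and -0.47 for *Podxl*. Gastric and mucin genes had a median difference of -0.71 on day 7, and 18 of 24 kept their sign, among them *Tff2* (-1.64) but not *Muc5ac* (0.26). A test of the difference between days called 0 of 16734 genes in edgeR, with 1225 (7.32%) at an unadjusted p under 0.05 and 23 higher and 13 lower in DESeq2.

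**Figure D5:**
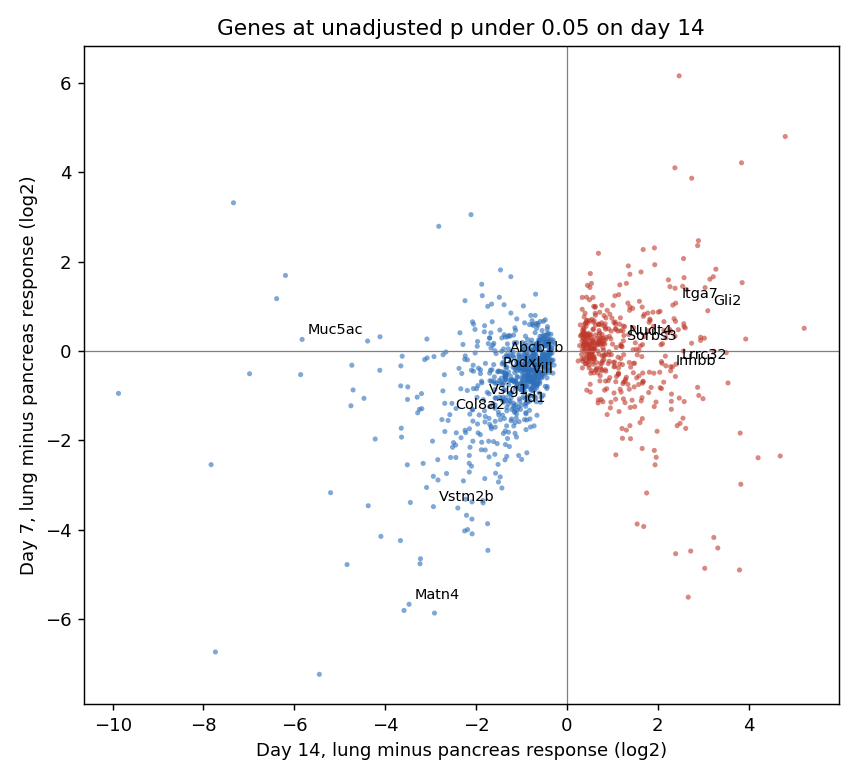
Lung minus pancreas response (log2) on day 14 (horizontal) and on day 7 (vertical) for the 1134 genes at an unadjusted p under 0.05 on day 14, red where the lung response was higher and blue where it was lower. Blue points lie mostly below 0 on day 7 (553 of 699), and red points lie on both sides of it (241 of 435 above).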

How the data were processed

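RNA-seq libraries were made by the authors from poly(A) RNA of sorted mKate2+ cells with a stranded kit and sequenced as 75-bp single-end reads. Per the labels and the study's methods, the authors trimmed reads with Trimmomatic 0.36, aligned them to GRCm38 with STAR 2.5.3a and counted them per gene with featureCounts 1.6.3, and they deposited 1 table of raw counts of 53465 genes. The strand setting of the counting is not given in the sources used here, so overlapping and antisense genes are uncertain. All columns were matched to samples by title, and no 2 libraries were identical.

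Counts were analysed with edgeR 4.0.16 (R 4.3.3): genes with low counts were filtered (filterByExpr, minimum count 10, minimum total 15), libraries were scaled by TMM, and a robust quasi-likelihood model of the 4 groups of day 14 gave both responses and their difference. Calls required more than a 2-fold change and an adjusted p (Benjamini-Hochberg, all genes tested) under 0.05. Named genes were the 5 with the lowest p per direction with at least 1 CPM in a group of each organ, genes called in both organs, genes the study names, and members of the lists given as values. Alternatives used DESeq2 1.42.0, limma 3.58.1 and other filters, scalings and samples. Fits that kept only the lung libraries with *mt-Co3* counts, and the *mt-Co3* term for day 7 and between days, were added after seeing the data. The model was tested on simulated data.

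The labels number the mice of each group and do not say whether a library pooled animals, so p-values measure the spread between these samples. Deviations from the group means of same-numbered lung libraries correlated at 0.496 to 0.584 in all 4 pairs, and those of the pancreas at 0.04 to 0.0501 in 2 pairs. This pairing comes from the data, and the lung numbers also follow the *mt-Co3* sets. Members and lists were chosen with earlier results of these data known. Promoter sequences were taken from RefSeq (GRCm38.p6). Some genes are not reported here.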

Additional observations from a re-analysis of the deposited data

Results flagged for a closer look

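Among 130 groups of 4 lung libraries examined for the named genes, 9 held a library that stood apart from the other 3, with a gap to its nearest neighbour that took more of the group's range than the 95% critical value of Dixon's test allows. Chance gives about 1 in 20 groups.

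*Wnt4* stood at 49 CPM in lung replicate 4 labelled off and at 28.4 to 29.9 CPM in the others (ratio 0.925), and without this library the lung groups were farther apart. *Pax9* stood at 103 CPM in lung replicate 2 labelled on and at 77.2 to 78.7 CPM in the others (0.941). *Ltbp1* gave 168 CPM in lung replicate 4 labelled on, against 114 to 121 CPM (0.857), and *Wisp1* gave 67.3 CPM in lung replicate 4 labelled off, against 14.2 to 22 CPM (0.852).

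In lung replicate 1 labelled off, the secreted mucin *Muc5b* stood at 51.6 CPM, against 8.28 to 12 CPM in the others (0.914), and *Ctse* at 188 CPM, against 76.6 to 91.5 CPM (0.867). *Hspa1b* reached 623 CPM in lung replicate 3 labelled on, against 228 to 263 CPM (0.911). In lung replicate 4 labelled on, *Itga1* was low at 91.1 CPM, against 112 to 116 CPM (0.854), and the actin-binding calponin *Cnn2* was high at 228 CPM, against 151 to 161 CPM (0.881).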

How the results depend on the processing

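Counts of called genes are given as higher and lower. In the difference between organs, where edgeR called 0 and 0, DESeq2 called 38 and 75, no low-count filter 8 and 7, the replicate block 4 and 6, limma voom 11 and 21, the *mt-Co3* term 17 and 43, only libraries without *mt-Co3* counts 7 and 16, and lung libraries with *mt-Co3* counts only 6 and 5. DESeq2 size factors, at least 10 counts in every library, a single fit of 12 groups and no fold threshold gave 0 and 0. The *mt-Co3* term shared 49 of its 60 genes with DESeq2, 27 with voom and 8 with the block.

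In the lungs (23 and 16), DESeq2 called 173 and 107, the block 94 and 41, the fit of 12 groups 12 and 2, the *mt-Co3* term 160 and 78, libraries without *mt-Co3* counts 43 higher, those with them 39 and 43, and the lungs alone 3 and 1. No fold threshold gave 47 lower and voom 10 lower. In the pancreas (151 and 28), DESeq2 called 438 and 105, the block 228 and 82, the fit of 12 groups 15 and 1, voom 744 and 285, the *mt-Co3* term 415 and 107, fits without and with the *mt-Co3* lung libraries 447 and 161 and 383 and 104, and the pancreas alone 482 and 179. No filter gave 48 lower and no fold threshold 72 lower. On day 7 (0 and 0), DESeq2 called 48 and 129 and the *mt-Co3* term 3 and 5. Between days (0 and 0), DESeq2 called 23 and 13, the block 2 higher and the *mt-Co3* term 3 and 1. The cause of these shifts was not tested.

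Leaving out each library in turn, with the lone sample of a group assumed to vary like the others, gave 0 to 1 higher and 0 to 0 lower in the difference, 4 to 136 and 4 to 60 in the lungs, 0 to 212 and 1 to 60 in the pancreas, 0 to 46 and 0 to 161 on day 7 and 0 to 54 and 0 to 15 between days, the last 2 highest without lung replicate 1 labelled on of day 7.

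A few small log2 values that were not called changed sign. With only libraries without *mt-Co3* counts the difference was 0.062 for *Pax9*, 0.41 for *Wisp1*, -0.12 for *Klf4*, -0.15 for *Klf6* and -0.10 for *Ltbp1*, and the lung change of *Vsig1* was -0.032. With the replicate block it was 0.18 for *Wisp1*, and the *Vsig1* lung change was -0.0046. With the other lung set it was -0.14 for *Slc29a3*, and the *Col8a2* lung change was -0.18. *Ltbp1* gave -0.0020 with at least 10 counts in every library and -0.084 in voom. Without single libraries the differences ran from -0.025 to 0.12 for *Klf6*, -0.13 to 0.10 for *Ltbp1*, -0.25 to 0.032 for *Runx2*, -0.090 to 0.18 for *Slc29a3* and -0.44 to 0.68 for *Wisp1*, and the lung changes from -0.24 to 0.41 for *Col8a2* and -0.13 to 0.15 for *Vsig1*. For the named genes, the block changed no call beyond those given with the results.

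The 2 pancreas libraries labelled off limit every comparison: leaving either out ended nearly all pancreas calls. At these depths a gene under 0.0932 to 0.248 CPM, or 3 counts, could not be told from 0, which touches *Muc5ac* and *Gkn2* in the pancreas.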

Other observations

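Further lists are described by single genes, named here after their values were seen and none called in the difference. By an unadjusted p under 0.05, the lung response was higher for 2.73% and lower for 4.43% of all genes. Of 19 pancreatic and foregut factors, 2 had a lower and 0 a higher lung response at that p. *Hnf4a*, a nuclear receptor of gut, liver and pancreas epithelium, stood at 100.1 ± 9.16 CPM (SD, n = 2) and 221 ± 92 CPM (n = 3) in the pancreas with the labels off and on, and at 308 ± 35 CPM and 278 ± 38.5 CPM (n = 4 each) in the lungs, a difference of -1.30 ± 0.33 (SE). The Wnt list gave 1 higher and 2 lower of 23. *Rnf43*, a ubiquitin ligase that removes Wnt receptors, rose in the pancreas from 6.66 ± 0.122 CPM to 15.7 ± 0.783 CPM (adjusted p = 0.0288, edgeR), with 25.9 ± 4.03 CPM and 26.3 ± 6.5 CPM in the lungs. *Wnt5a*, a ligand of the non-canonical branch, had a difference of 1.46 ± 0.49, with a pancreas change of -1.23 ± 0.39 and a lung change of 0.24 ± 0.31.

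Among chemokines and cytokines, 2 were higher and 2 lower of 33. *Csf1*, the macrophage growth factor, stood at 32.2 ± 9.5 CPM (SD, n = 4) in the lungs with the label off and 78.7 ± 28.7 CPM with the label on, and at 177 ± 1.23 CPM and 135 ± 46.6 CPM in the pancreas, a difference of 1.68 ± 0.46 (SE) beside summed myeloid markers of 228 to 384 CPM and then 404 to 802 CPM in the lungs. The same markers summed to 189 to 305 CPM and then 335 to 378 CPM in the pancreas, with single changes from -0.20 (*Lyz2*) to 0.78 (*Cd14*). Of these, *Csf1r*, *Cd68* and *Adgre1* had pancreas changes of -0.025 to -0.0041. The part of the myeloid markers in this difference was not tested. *Cxcl15*, a chemokine known from lung epithelium, rose in the pancreas by 4.12 ± 0.72 (adjusted p = 0.0208, edgeR) from 0.16 CPM on average to 2.85 CPM, beside summed lung epithelium markers of 35.5 to 35.6 CPM and then 53.2 to 93.8 CPM there. Of these 12 markers 5 were at 0, and *Sftpd*, *Napsa* and *Slc34a2* had pancreas changes of 1.33, 1.92 and 1.89. Their part in it was not tested. At the same p, the other lists were p53 targets (2 higher and 1 lower of 25), RAS-MAPK output (1 and 1 of 24), matrix proteases (1 and 1 of 33), matrix glycoproteins (1 and 4 of 40), the hedgehog pathway (2 and 1 of 18) and CDK inhibitors (0 and 0 of 6).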
